A study of Homo sapiens with 48 samples.

Results

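The genes that open replication origins and run the replication fork were followed in K562 cells after imatinib. The group holds 47 genes, chosen by name for their place in DNA replication, with earlier results of these data known. Every probe set of the array annotated to 1 of these symbols alone was taken. All 47 genes were measured, by 68 of the 22215 probe sets tested, and a gene is represented below by its brightest probe set, 1 of 11963 genes on the array. K562 is an established human line from chronic myeloid leukaemia. Its growth depends on the fusion kinase BCR-ABL1, which imatinib blocks. The 48 samples form 8 lettered sets, A to H, each with 3 mock samples and 3 samples given 1 micromolar imatinib for 24 hours; the time of the mock treatment and the meaning of the letters are not stated. Imatinib samples carry a keyword that also says mock, and were grouped by their title and description. Mock RNA was prepared with Trizol and then a column kit, and imatinib RNA with the column kit alone. The spike level also ran along with treatment in every set. Drug, RNA preparation and spike level therefore cannot be told apart in any comparison here. Separate cultures are nowhere stated, so the p-values describe only how these samples vary among themselves, a variation that may be technical.

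A replication origin is prepared in steps. The origin recognition complex (ORC) binds DNA, and CDC6 and CDT1 then load the MCM2 to MCM7 ring, the core of the replicative helicase, in an inactive form. Geminin (GMNN) holds CDT1 back outside the loading window, and the kinase CDC7 with its activator DBF4, together with MCM10, CDC45 and the GINS complex, turns the loaded ring into a moving helicase. Behind it, polymerase alpha with primase lays primers, polymerases epsilon and delta copy the strands, the clamp PCNA and its loader RFC keep them on DNA, RPA covers exposed single strands, FEN1 and LIG1 finish the lagging strand, CHAF1 rebuilds nucleosomes, and TIMELESS with TIPIN steadies the fork. In dividing cells many of these genes are switched on together by E2F factors as cells approach S phase.

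The deposited values are on a log2 scale, and a level below is such a value. The mean level of a sample differed by at most 0.053 from that of another sample of its set, but the sets themselves lay between 5.88 and 7.61, so all changes were taken within sets. The brightest probe set of 46 of the 47 genes was, on average, at least as bright as the median probe set of the array, the exception being PRIM2. Of the markers listed for K562, 10 were measured and all 10 lay at or above that median, against 4 of 12 lymphoid, myeloid and epithelial markers (CD3E, CD4, CD8A and EPCAM). The signal of the 10 K562 markers, globins and erythroid factors among them, was summed after undoing the log2 scale. This sum was 189% to 296% of the set's mock mean in the imatinib samples, against 96.1% to 104% in the mock samples. It weighs bright markers most: taken singly, the 10 rose by 0.14 to 3.13 log2. The same sum over those 12 other markers was 94.4% to 105% of the set's mock mean in the mock samples and 94.6% to 114% in the imatinib samples. Taken singly, the 12 changed by -0.11 to 0.20 log2. By the fit over all sets described below, 5 passed as higher and none as lower, against 41.6% and 27.1% of all genes. In bulk RNA, fewer cells of a type and less RNA per cell cannot be told apart. The 3′ signal of ACTB relative to its 5′ signal was higher after imatinib by 0.15 ± 0.19 log2 (SD over 8 sets, higher in 6 of 8, exact sign-flip p = 0.0469, adjusted over 4 controls 0.0938), and relative to its middle signal by 0.14 ± 0.13 (7 of 8, exact p = 0.0234, adjusted 0.0938). For GAPDH the shifts were 0.02 ± 0.08 (4 of 8, exact p = 0.531, adjusted 0.531) and 0.04 ± 0.06 (6 of 8, exact p = 0.133, adjusted 0.177). The part of these RNA quality values in the results below was not tested.

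Replication genes moved in both directions after imatinib, and by small amounts. Changes are limma estimates of imatinib minus mock over all samples with the set as a factor, two-sided, with p-values adjusted by Benjamini-Hochberg over all probe sets. Over all 8 sets 14 of the 47 were higher, 24 were lower and 9 did not pass the threshold of an adjusted p of 0.05. The background is high: 68.7% of all genes were called, 41.6% higher and 27.1% lower. Among genes at or above the median level 80.9% were called, 41.4% higher and 39.5% lower. The 38 members called are 80.9% of 47, a share near that background, with 29.8% higher and 51.1% lower. The median change of the members was -0.10 log2, against 0.05 for all genes and 0.02 for genes at or above the median level. Changes ran from -0.68 for ORC5 to 0.61 for CDT1, and 42 of 47 members changed by less than 0.5 log2 either way. A change of at least 0.5 log2 was found upwards for CDT1 alone (5.3% of all genes) and downwards for ORC5, RFC3, ORC2 and POLD2 (9.04% of all genes). No member reached 1 log2, which 1.58% of all genes did upwards and 2.44% downwards. The split moved with scaling: with each array centred on its median 11 members were higher and 26 lower, and after quantile normalization within sets 19 were higher and 20 lower.

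**Figure D1:**
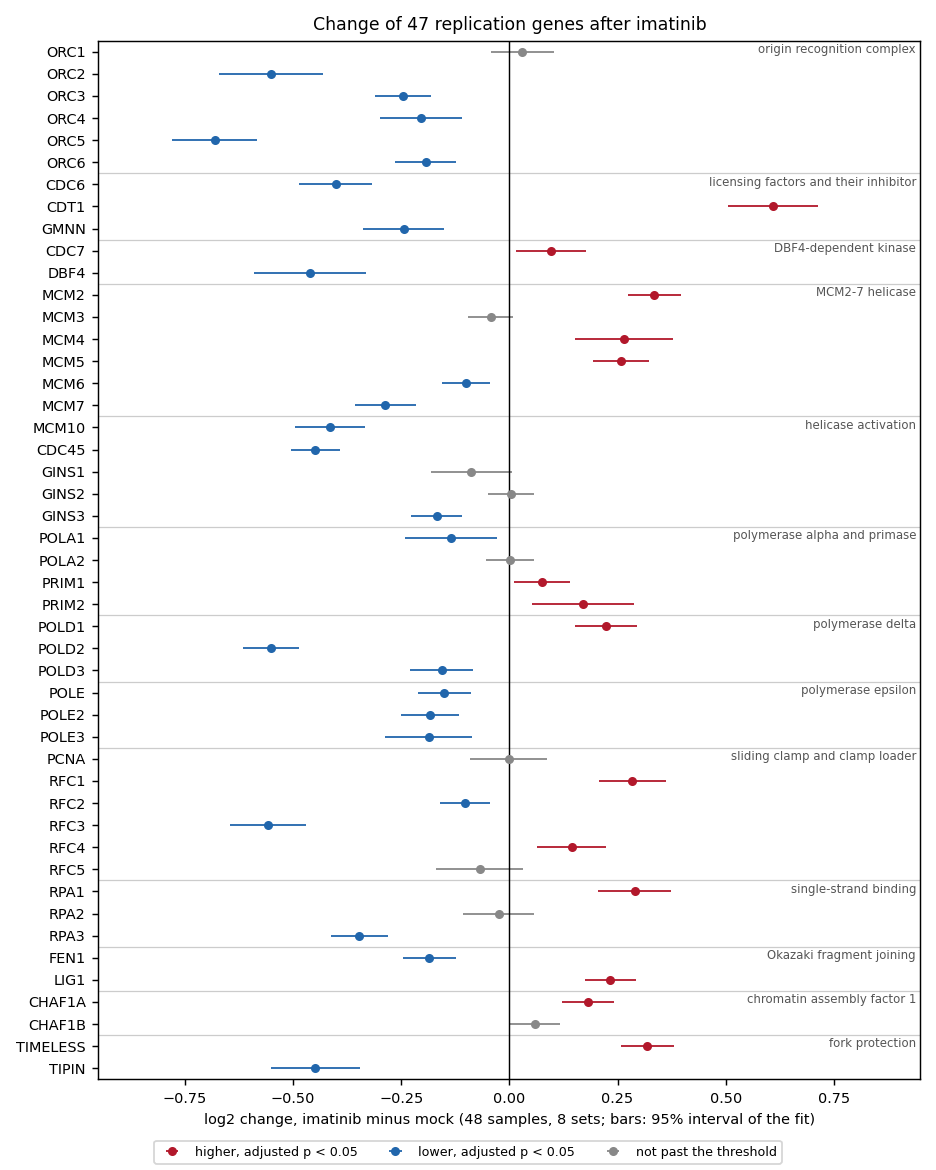
Change of each of the 47 genes after imatinib on the log2 scale (horizontal axis), grouped by role, with the 95% interval of the fit over 24 mock and 24 imatinib samples; red is higher, blue lower and grey not past the threshold. Points lie on both sides of 0 within most complexes, from -0.68 for ORC5 to 0.61 for CDT1.

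The DNA upstream of the 3 largest rises and 3 largest falls is shown because these genes are usually discussed as E2F targets. Each line gives the 150 bases before the transcription start, 5′ to 3′ on the gene's strand, from RefSeq on GRCh38.p14, with letters of an E2F match in capitals. The rises are CDT1 (chr16:88803639-88803788, plus strand), MCM2 (chr3:127598261-127598410, plus) and TIMELESS (chr12:56449427-56449576, minus). The falls are ORC5 (chr7:104208014-104208163, minus), RFC3 (chr13:33817999-33818148, plus) and ORC2 (chr2:200963661-200963810, minus).
CDT1: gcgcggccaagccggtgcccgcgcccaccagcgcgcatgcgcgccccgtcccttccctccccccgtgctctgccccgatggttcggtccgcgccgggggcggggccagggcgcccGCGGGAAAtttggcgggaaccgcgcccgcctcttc
MCM2: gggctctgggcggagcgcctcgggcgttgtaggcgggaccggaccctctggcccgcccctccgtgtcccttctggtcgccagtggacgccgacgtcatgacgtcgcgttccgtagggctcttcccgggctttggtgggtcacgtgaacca
TIMELESS: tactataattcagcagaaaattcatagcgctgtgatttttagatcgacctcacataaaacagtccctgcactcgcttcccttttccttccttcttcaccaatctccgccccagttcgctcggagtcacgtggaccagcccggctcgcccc
ORC5: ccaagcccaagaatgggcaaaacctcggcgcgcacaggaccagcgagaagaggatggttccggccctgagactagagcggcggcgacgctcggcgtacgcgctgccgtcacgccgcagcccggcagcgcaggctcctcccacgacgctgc
RFC3: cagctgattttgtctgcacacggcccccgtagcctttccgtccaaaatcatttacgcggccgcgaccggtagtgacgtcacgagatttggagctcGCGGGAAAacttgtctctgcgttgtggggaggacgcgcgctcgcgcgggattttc
ORC2: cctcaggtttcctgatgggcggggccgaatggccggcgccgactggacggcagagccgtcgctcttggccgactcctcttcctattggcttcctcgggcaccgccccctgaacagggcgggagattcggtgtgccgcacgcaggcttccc

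The letters searched for E2F were TTTGGCGC, TTTCCCGC, TTTGCCGC and TTTCGCGC on both strands. In the windows printed above, CDT1, the largest rise, and RFC3, the second largest fall, hold the same 8 letters, GCGGGAAA, beginning at positions -35 and -55 from the start. MCM2 has matches only after its start, from base 3, and TIMELESS, ORC5 and ORC2 have none in the whole window of 250 bases before to 50 after the start. Over that window 20 of the 42 members with an entry held an E2F match (47.6%), against 3.99% of 27305 genes in the table; MCM4, MCM5, POLD3, RPA2 and RPA3 had no entry. Of the 20 members with E2F letters, 4 rose, 11 fell and 5 did not pass (median -0.12), and of the 22 without, 8 rose, 11 fell and 3 did not pass (median -0.09). CCAAT, the letters read by NF-Y, was in 24 of 42 members (57.1%, against 39.7% of genes). TTTGAA, the letters of the cell cycle homology element, was in 2 members, DBF4 and POLE3 (4.76%, against 18.2% of genes). CCAAT and TTTGAA were also searched on both strands, and neither occurs inside the E2F letters. For members and for all genes, a gene counted if any of its entries matched. The genes of the table were not matched to the members in base content.

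Of the 6 subunits of ORC, the complex that marks origins, 5 fell, none rose and ORC1 did not pass. In ORC5, an ATP-binding subunit, the 24 mock samples lay between -0.17 and 0.14 around their set's mock mean (median -0.02), and the 24 imatinib samples between -1.40 and -0.24 (median -0.66). Every imatinib sample lay below every mock sample of its set, in all 8 sets; 9.91% of all genes are separated downwards in this way. In set C, where the fall was largest, the mock levels were 8.17, 8.43 and 8.36 and the imatinib levels 7.37, 7.49 and 7.13. ORC5 fell by 0.68 ± 0.049 log2 (SE), to 62.4% of the mock level (adjusted p = 4.13e-17), and it was called lower in each set fitted alone.

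ORC2, a core subunit that contacts ORC3, was also separated in all 8 sets. Its mock samples lay between -0.22 and 0.35 around the set's mock mean (median -0.02) and its imatinib samples between -1.27 and -0.18 (median -0.49). The widest gaps were in sets C and E, with changes of -0.997 and -0.82, and the smallest in set H, at -0.33. ORC2 fell by 0.55 ± 0.060 (SE, adjusted p = 2.72e-11), to 68.2% of mock. ORC3 fell by 0.25 ± 0.032 (3.4e-09) and was below 0 in 8 of 8 sets. ORC4 fell by 0.20 ± 0.047 (1.97e-04) and ORC6 by 0.19 ± 0.035 (4.85e-06), each below 0 in 7 of 8 sets. ORC1, the ATP-binding subunit whose supply varies through the cell cycle in human cells, changed by 0.03 ± 0.036 (adjusted p = 0.467; 95% interval -0.04 to 0.10), and passed as higher after quantile normalization within sets (0.07, adjusted p = 0.0403).

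The licensing factors moved apart. CDT1, which brings the MCM ring to ORC and CDC6, had mock samples between -0.43 and 0.33 around the set's mock mean (median 0.01) and imatinib samples between 0.20 and 1.07 (median 0.58). All 24 imatinib samples lay above the mock mean of their set, and no imatinib sample overlapped the mock samples of its set in any of the 8 sets (6.48% of all genes are separated upwards in this way). In set H, with the largest rise, the mock levels were 8.18, 8.48 and 8.19 and the imatinib levels 8.96, 9.27 and 9.35. CDT1 rose by 0.61 ± 0.051 (SE), to 153% of mock (adjusted p = 1.09e-14), and was called in 7 sets, set F being the exception (0.30, adjusted p = 0.212). CDC6, the ATPase that loads MCM with CDT1, fell by 0.40 ± 0.042 (8.84e-12) and was below 0 in 8 of 8 sets. GMNN, the inhibitor of CDT1, fell by 0.24 ± 0.047 (1.12e-05), most in set E (-0.70) and least in set A (-0.01).

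The kinase that fires origins also split between its parts. DBF4, the activating subunit, had mock samples between -0.36 and 0.31 around the set's mock mean (median -0.01) and imatinib samples between -1.30 and -0.09 (median -0.39). All 24 imatinib samples lay below the mock mean of their set, and the 2 groups did not overlap in 5 of 8 sets. DBF4 fell by 0.46 ± 0.064 (SE, adjusted p = 1.73e-08), to 72.6% of mock. Its catalytic partner CDC7 rose by 0.10 ± 0.040 (0.0334), above 0 in 5 of 8 sets. The CDC7 call was lost with arrays centred on their medians (0.06, adjusted p = 0.284), without set A, F or H, with the set as the unit, and in 7 of 48 fits without 1 sample (adjusted p 0.0501 to 0.0625).

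In the MCM ring 3 subunits rose, 2 fell and MCM3 did not pass. MCM2, a subunit phosphorylated by CDC7, had mock samples between -0.15 and 0.15 around the set's mock mean (median 0.00) and imatinib samples between 0.17 and 0.56 (median 0.30). The samples were separated in all 8 sets, and the rise varied little between them, from 0.23 in set B to 0.41 in set H. MCM2 rose by 0.34 ± 0.031 (SE, adjusted p = 1.32e-13), to 126% of mock.

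MCM4, a subunit of the ring's catalytic core, had mock samples between -0.29 and 0.23 (median 0.01) and imatinib samples between -0.19 and 0.74 (median 0.20) by its brightest probe set. The samples overlapped in 6 of 8 sets, and only set A passed alone, with mock levels of 8.08, 8.57 and 8.45 and imatinib levels of 8.89, 9.09 and 9.11. MCM4 rose by 0.26 ± 0.057 (SE, 7.17e-05), and another MCM4 probe set separated the samples in 7 of 8 sets (rise 0.38 ± 0.039, adjusted p = 5.42e-12). MCM5 rose by 0.26 ± 0.032 (1.03e-09), above 0 in 8 of 8 sets. MCM7, the partner of MCM4 in the ring, fell by 0.29 ± 0.035 (7.17e-10), below 0 in 8 of 8 sets. MCM6 fell by 0.10 ± 0.027 (0.00146), but stood at 0.02 after quantile normalization within sets. MCM3 changed by -0.04 ± 0.026 (adjusted p = 0.138); it passed as lower with centred arrays (-0.08, 0.0179) and as higher after quantile normalization (0.10, 3.28e-05), so its direction rests on the scaling.

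Among the factors that activate the helicase, 3 of 5 fell and none rose. CDC45, which joins the MCM ring and GINS in the working helicase, fell by 0.45 ± 0.029 (SE, adjusted p = 4.89e-19), was separated in 8 of 8 sets and was called lower in each set alone. MCM10, needed to start unwinding, fell by 0.42 ± 0.040 (8.28e-13), also with no overlap in 8 of 8 sets. GINS3 fell by 0.17 ± 0.029 (2.45e-06). The other GINS genes among the 47 did not pass: GINS1 changed by -0.09 ± 0.046 (0.0904) and GINS2 by 0.00 ± 0.027 (0.907). GINS2 passed as higher after quantile normalization within sets (0.12, adjusted p = 1.13e-05). GINS1 passed as lower without set F (-0.12, adjusted p = 0.0264), with array weights or centred arrays, and in 2 fits without 1 sample, imatinib replicate 1 of set E or mock replicate 3 of set F.

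**Figure D2:**
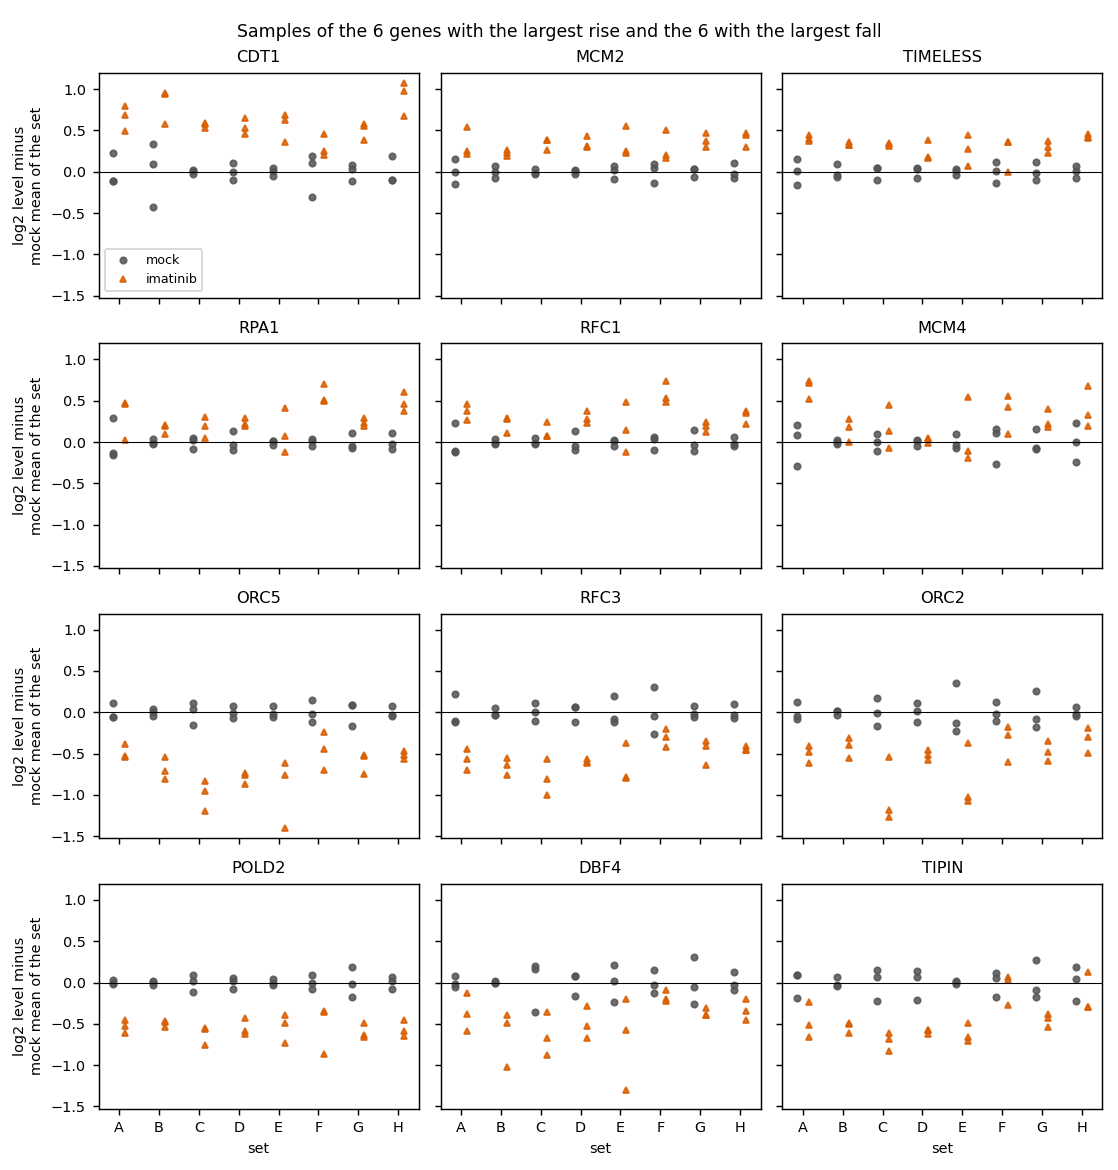
Level of each sample minus the mock mean of its set (vertical axis, log2) in sets A to H for the 6 genes with the largest rise (CDT1, MCM2, TIMELESS, RPA1, RFC1, MCM4) and the 6 with the largest fall (ORC5, RFC3, ORC2, POLD2, DBF4, TIPIN) among those with the same sign in all sets; grey circles are mock and orange triangles imatinib. Imatinib samples of ORC5, ORC2 and POLD2 lie below the mock samples of their set in all 8 sets, and those of MCM4 overlap them in 6 sets.

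The polymerases differed among their subunits. In polymerase delta, POLD2, the second subunit, had mock samples between -0.17 and 0.19 around the set's mock mean (median 0.00) and imatinib samples between -0.86 and -0.34 (median -0.54). No samples overlapped in any set, and the change ran from -0.49 in set B to -0.62 in set C, the narrowest range over sets among the 6 largest falls. POLD2 fell by 0.55 ± 0.033 (SE), to 68.3% of mock (adjusted p = 3.16e-20), and was called lower in each set alone. POLD1, the catalytic subunit, rose by 0.22 ± 0.035 (3.45e-07), above 0 in 7 of 8 sets, and POLD3 fell by 0.16 ± 0.037 (2.3e-04). All 3 measured subunits of polymerase epsilon fell: the catalytic POLE by 0.15 ± 0.031 (3.31e-05), POLE2 by 0.18 ± 0.033 (3.93e-06) and the histone-fold subunit POLE3 by 0.19 ± 0.050 (0.00121), each below 0 in 7 of 8 sets.

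In the primer-making complex 2 of 4 rose and 1 fell, all by little. POLA1, the catalytic subunit of polymerase alpha, had mock samples between -0.40 and 0.27 around the set's mock mean (median -0.01) and imatinib samples between -0.71 and 0.34 (median -0.14). The sets differed in direction: POLA1 changed by -0.51 in set C, -0.38 in set D and -0.25 in set B, each called lower alone, but by 0.25 in set F, which did not pass (adjusted p = 0.438). Over all sets POLA1 fell by 0.14 ± 0.053 (SE, 0.0225), a call lost after quantile normalization within sets, with the set as the unit, and without set B, C, D or E (adjusted p = 0.168 without set C). POLA2 changed by 0.00 ± 0.028 (0.97). The primase genes rose, PRIM1 by 0.07 ± 0.033 (0.0405) and PRIM2 by 0.17 ± 0.058 (0.00987). PRIM1 was not past the threshold in 17 of 48 fits without 1 sample (adjusted p 0.0501 to 0.0775), and both calls were lost with centred arrays (PRIM1 0.364, PRIM2 0.0776). The PRIM1 call was also lost with the set as the unit (0.188) and without set B, C, D, F or G (without F, 0.03, adjusted p = 0.301). The PRIM2 call was also lost after quantile normalization within sets (0.0668) and without set A (0.0502). PRIM2 was measured by a dim probe set, and a further 2 probe sets that name it together with PRIM2BP were not used.

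PCNA, the clamp that tethers polymerases, did not pass, while 4 of the 5 genes of its loader did, in both directions. PCNA changed by -0.00 ± 0.044 (SE, adjusted p = 0.97; 95% interval -0.09 to 0.09) but passed as higher after quantile normalization within sets (0.13, adjusted p = 0.00234). RFC3, a small subunit of the loader, had mock samples between -0.26 and 0.31 around the set's mock mean (median -0.03) and imatinib samples between -0.997 and -0.20 (median -0.57). All 24 imatinib samples lay below the mock mean of their set, and only set F had an overlap. RFC3 fell by 0.56 ± 0.044 (SE), to 67.9% of mock (adjusted p = 7.26e-16).

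RFC1, the large subunit, moved the other way. Its mock samples lay between -0.12 and 0.23 (median -0.02) and its imatinib samples between -0.12 and 0.74 (median 0.27). Of its 24 imatinib samples 23 lay above the mock mean of their set, the exception being a sample of set E, and the groups did not overlap in 6 of 8 sets. RFC1 rose by 0.28 ± 0.038 (SE, adjusted p = 8.77e-09), most in set F (0.58). Of the other small subunits, RFC4 rose by 0.14 ± 0.039 (0.0015), RFC2 fell by 0.10 ± 0.029 (0.00168) and RFC5 changed by -0.07 ± 0.049 (0.216). The RFC2 call was lost after quantile normalization within sets (-0.02, adjusted p = 0.658), and RFC5 passed as lower without set F (-0.11, 0.0443).

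The single-strand binding protein RPA also split by subunit. RPA1, the large DNA-binding subunit, had mock samples between -0.15 and 0.29 around the set's mock mean (median -0.02) and imatinib samples between -0.13 and 0.70 (median 0.26). In set F, with the largest rise, the mock levels were 9.26, 9.24 and 9.17 and the imatinib levels 9.73, 9.72 and 9.92. RPA1 rose by 0.29 ± 0.042 (SE, adjusted p = 4.59e-08), and the groups did not overlap in 5 of 8 sets. RPA3, the smallest subunit, fell by 0.35 ± 0.032 (2.94e-13), with no overlap in 8 of 8 sets. RPA2 changed by -0.02 ± 0.041 (0.611), but passed as higher after quantile normalization within sets (0.11, 0.00186).

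At the lagging strand, the flap nuclease FEN1 fell by 0.18 ± 0.030 (SE, adjusted p = 6.94e-07) and the ligase LIG1 rose by 0.23 ± 0.030 (1.86e-09), each with 1 sign in all 8 sets. The FEN1 call was lost after quantile normalization within sets (-0.06, adjusted p = 0.0525). Of the nucleosome assembly factor, CHAF1A rose by 0.18 ± 0.030 (6.74e-07) on its brightest probe set, and CHAF1B changed by 0.06 ± 0.028 (0.0631). CHAF1B passed as higher with array weights, after quantile normalization within sets, without set G, and in 8 of 48 fits without 1 sample (adjusted p 0.0242 to 0.0496).

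The fork protection partners moved in opposite directions. TIMELESS had mock samples between -0.16 and 0.15 around the set's mock mean (median 0.01) and imatinib samples between 0.00 and 0.46 (median 0.35). All 24 imatinib samples lay above the mock mean of their set, and the groups did not overlap in 7 of 8 sets. TIMELESS rose by 0.32 ± 0.030 (SE, adjusted p = 5.61e-13), to 125% of mock.

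TIPIN, which binds TIMELESS, had mock samples between -0.22 and 0.27 (median 0.03) and imatinib samples between -0.83 and 0.13 (median -0.50). Of its 24 imatinib samples 21 lay below the mock mean of their set, and the groups overlapped in 2 sets, F and H. TIPIN fell by 0.45 ± 0.051 (SE, adjusted p = 1.2e-10), to 73.3% of mock. The fall was -0.06 in set F and -0.16 in set H, against -0.71 in set C.

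Each set was also fitted alone, with 3 samples against 3, and fewer members passed than over all sets. In set A 9 members were called higher and 11 lower (14.7% and 15.9% of all genes), in B 9 and 21 (30.1% and 21.3%), in C 4 and 19 (20.8% and 21.4%) and in D 6 and 19 (23.8% and 20.3%). In set E 1 was higher and 11 lower (8.03% and 13.7%), in F 2 and 5 (8.12% and 10.7%), in G 3 and 10 (12.7% and 16.9%) and in H 10 and 8 (13.4% and 12.7%). These shares are over all genes, dim ones included, and were not computed at or above the median level. Median changes of the members lay between -0.19 in set E and 0.03 in sets F and H. These counts rest on few samples: without imatinib replicate 1 of set E 23 members were lower there, without its imatinib replicate 3 only 7, and without its imatinib replicate 2 there were 5 higher. Without mock replicate 2 or 3 of set C 12 were lower, and without imatinib replicate 1 of set D 3 were higher. In set F 0 to 3 were lower without any 1 of its 6 samples. In set G 10 were higher without mock replicate 2, 1 was higher and 5 lower without imatinib replicate 3, and 5 were lower without imatinib replicate 2. In set H 6 were higher and 4 lower without mock replicate 1, 4 lower without mock replicate 2 and 5 lower without imatinib replicate 1.

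**Figure D3:**
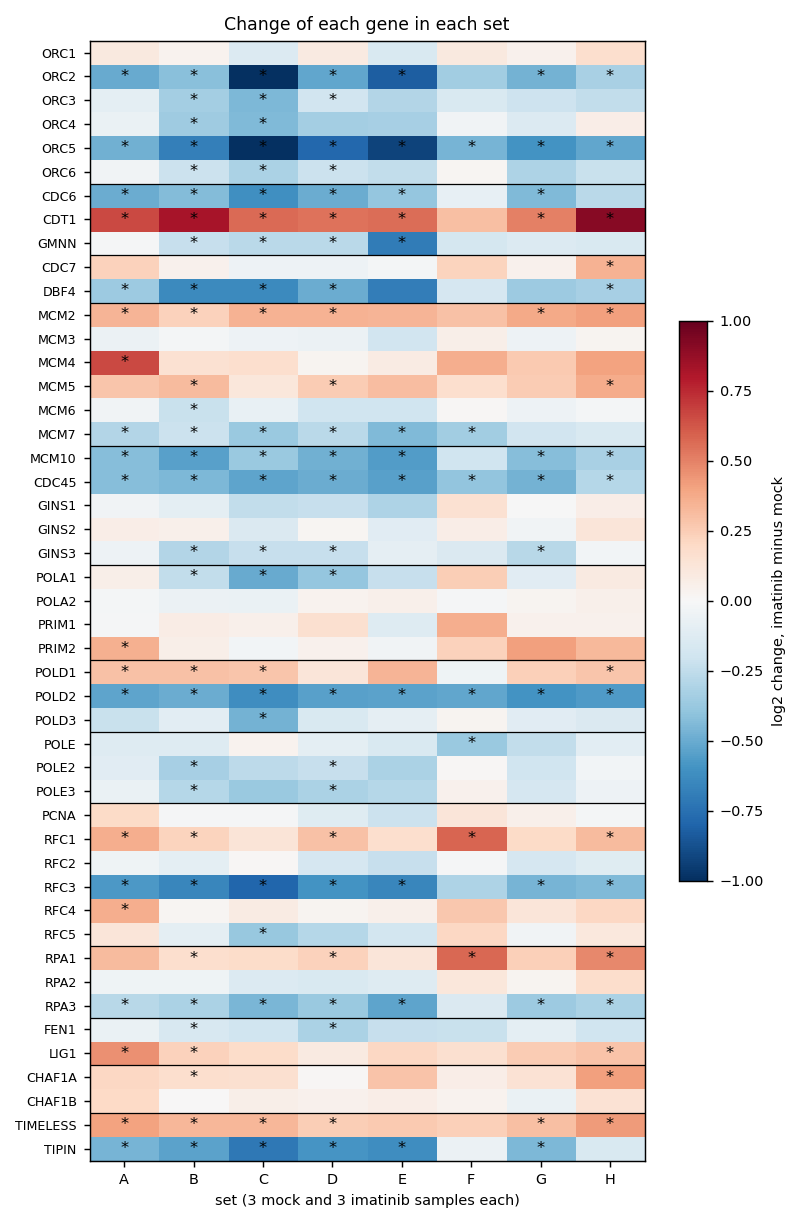
Log2 change after imatinib of each gene (rows, ordered by role) in each set (columns), from blue (lower) to red (higher); a star marks an adjusted p under 0.05 in that set alone, 3 samples against 3. ORC5, CDC45 and POLD2 carry a star in all 8 sets, and CDT1 in 7.

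The change had the same sign in all 8 sets for 25 of 47 members (10 above 0 and 15 below), against 42.3% of all genes. The shares of all genes in this paragraph include dim genes and were not computed for genes at or above the median level. Members called lower in each of the 8 sets were ORC5, CDC45 and POLD2 (7.76% of all genes), and none was called higher in each (4.61% of all genes). In at least 4 sets 6 members were called higher (12.8% of all genes) and 13 lower (17.1%). Samples were fully separated in all 8 sets upwards for CDT1 and MCM2 (6.48% of all genes) and downwards for ORC2, ORC5, MCM10, CDC45, POLD2 and RPA3 (9.91%). Called in no set were 10 members (30.1% of all genes), and no member was called higher in a set and lower in another by its brightest probe set.

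Partners that work as 1 machine could be compared within each array, a difference that array scaling by a constant does not touch. For each set the change of the first gene minus that of the second was taken, and means below are over the 8 sets with their SD. CDT1 gained on its inhibitor GMNN by 0.85 ± 0.26 log2, with no overlap of samples in 7 of 8 sets, and CDC6 minus CDT1 changed by -1.01 ± 0.28 (no overlap in 8). CDC7 gained on DBF4 by 0.56 ± 0.12, MCM2 on MCM7 by 0.62 ± 0.10, and POLD1 on POLD2 by 0.77 ± 0.14. RFC1 gained on RFC3 by 0.84 ± 0.10, RPA1 on RPA3 by 0.64 ± 0.09, and TIMELESS on TIPIN by 0.77 ± 0.23, while FEN1 minus LIG1 changed by -0.42 ± 0.06. For POLE2 minus POLE3, subunits of polymerase epsilon, the mean was 0.00 ± 0.06. Of 77 pairs within complexes 49 had the same sign in all 8 sets, a larger share than the 49.7% of all gene pairs. Gaps of at least 0.5 log2 are common on this array: 14 of the 77 pairs had one, a smaller share than the 27.2% of all gene pairs. Full separation in all 8 sets was found for 15 of the 77, near the 19.4% of all gene pairs. Pairs that share a gene are not independent. The pairs of all genes include dim genes, whereas 46 of the 47 members lay at or above the median level. Shares for gene pairs of like brightness were not computed.

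**Figure D4:**
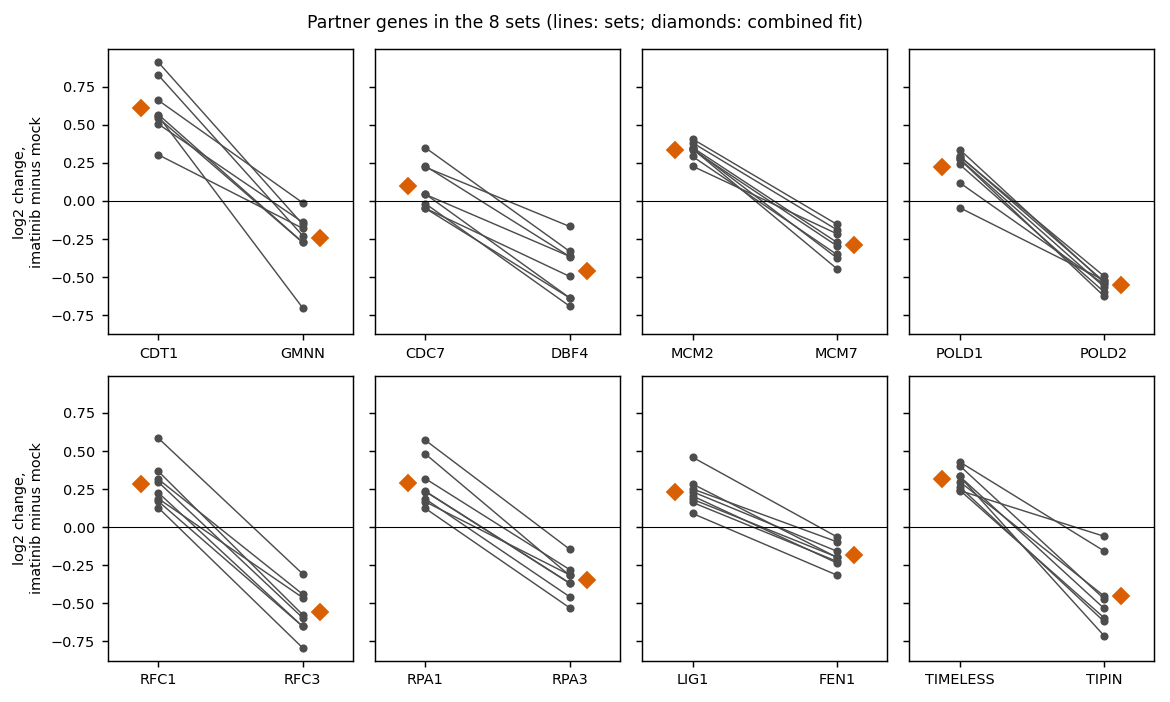
Log2 change after imatinib of 8 pairs of partner genes; each line joins the changes of the 2 genes in 1 of the 8 sets, and diamonds give the fit over all sets. The pairs were picked from 77, among those with a gap of 1 sign in all 8 sets. The gene that gained is on the left, so every line falls by this choice, as for POLD1 and POLD2, with a mean gap of 0.77.

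Of the 68 probe sets of these genes 20 were higher and 33 lower, against 39.3% and 25.8% of all probe sets (65.2% called either way). Of these 68, 61 were at least as bright as the median probe set, while the shares are over bright and dim probe sets. Genes with several probe sets mostly had them called in 1 direction. Of 15 such members, 11 had every probe set called in 1 direction, 3 had some called (RFC1, CHAF1A and TIMELESS), RFC5 had none called, and no member had probe sets called in opposite directions. ORC5 was lower on all 3 of its probe sets, by 0.68, 0.39 and 0.05, the last at a mean mock level of 3.57. RFC3 fell by 0.56 and 0.67, CDC6 by 0.40 and 0.42, and the 4 probe sets of MCM4 rose by 0.26 to 0.38. CHAF1A was the least settled: its other probe sets changed by -0.03 and -0.06, the second was called higher in set A (0.34) and lower in sets C (-0.20) and D (-0.33), and the mean over its probe sets did not pass (0.03, adjusted p = 0.329). The probe sets of RFC1 and TIMELESS that did not pass had mean mock levels of 5.03 and 4.98, below the median of 6.43.

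**Figure D5:**
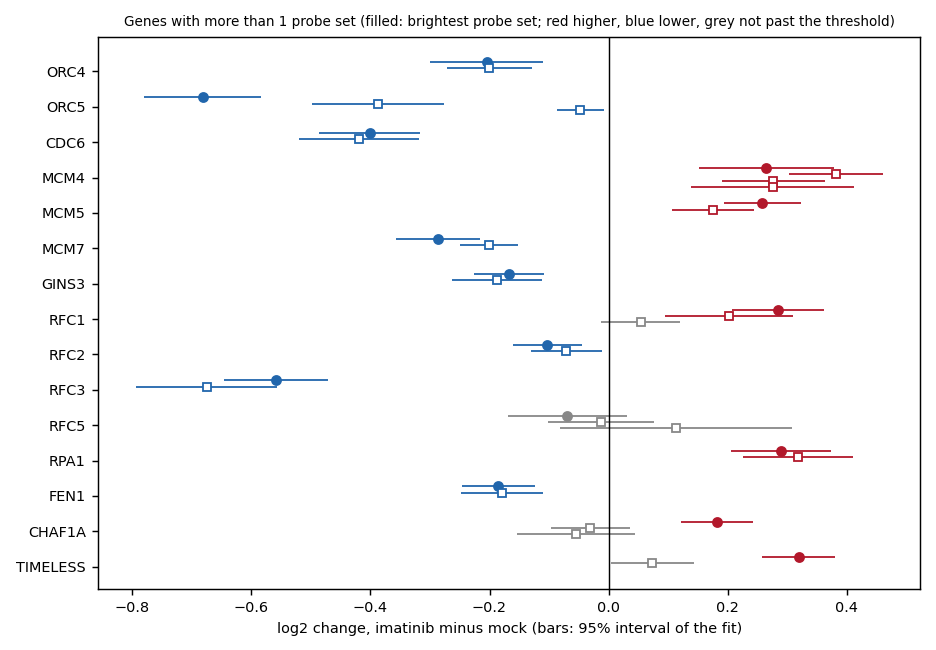
Log2 change after imatinib with its 95% interval for every probe set of the 15 genes that have more than 1; the filled circle is the brightest probe set and open squares are the others. Intervals of a gene lie on 1 side of 0 for most genes, and CHAF1A has 1 probe set at 0.18 and others at -0.03 and -0.06.

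A test of whether the change differed between sets passed for 3 of the 68 probe sets (7.2% of all probe sets) and 1 of the 47 brightest (7.03% of all genes). These were POLA1, described above (adjusted p = 0.0209), and dimmer probe sets of ORC4 and MCM5. The ORC4 probe set changed by -0.49 in set C, where mock levels were 5.84, 5.93 and 5.88 and imatinib levels 5.31, 5.61 and 5.27, and by 0.07 in set F (adjusted p for the difference between sets = 0.0426). The MCM5 probe set changed by 0.44 in set H, where mock levels were 8.28, 8.33 and 8.19 and imatinib levels 8.66, 8.74 and 8.71, and by -0.08 in set F (0.0458). On simulated data with sets of unequal spread this test called more than its threshold allows. The call of POLA1 was lost without mock replicate 3 or imatinib replicate 3 of set C (adjusted p 0.0518 and 0.0538). The calls of the ORC4 and MCM5 probe sets were lost in 26 and 28 of 48 fits without 1 sample, and that of MCM5 also with centred arrays (0.125). With the replicate number as a block all 3 calls were lost.

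Genes that work beside these 47 also changed in both directions. Of 32 other replisome genes listed, 23 were measured, 4 rose and 8 fell (median -0.04). The 12 called are 52.2% of 23, with 17.4% higher and 34.8% lower. Of all genes 68.7% were called, 41.6% higher and 27.1% lower. Of the 23, 20 lay at or above the median level, where 80.9% of genes were called, 41.4% higher and 39.5% lower. The falls were led by the topoisomerase TOP2A (-0.56 ± 0.039, SE, adjusted p = 9.85e-18), the histone chaperone subunit SSRP1 (-0.50 ± 0.038, 2.58e-16) and the MCM-binding protein MCMBP (-0.49 ± 0.043, 4.49e-14). The rises were led by the fork factor DONSON (0.41 ± 0.048, 2.08e-10), the PCNA-binding PCLAF (0.23 ± 0.027, 5.27e-10) and MCM9 (0.12 ± 0.042, 0.0124). With centred arrays 2 of this list rose and after quantile normalization 7.

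Of 14 genes of the replication checkpoint 13 were measured, 3 rose and 9 fell (median -0.20), against 41.6% and 27.1% of all genes and 41.4% and 39.5% of those at or above the median level. The largest fall was that of ATR, the kinase that answers stalled forks, by 1.25 ± 0.072 (SE, adjusted p = 1.09e-20) on a probe set below the median level, followed by the phosphatases CDC25C (-0.59 ± 0.045, 6.01e-16) and CDC25B (-0.45 ± 0.028, 2.2e-19). RAD9A (0.29 ± 0.025, 4.37e-14) and HUS1 (0.17 ± 0.029, 7.17e-07), parts of the checkpoint clamp, and the fork remodeller SMARCAL1 (0.17 ± 0.031, 3.79e-06) rose. Of 18 E2F factors, pocket proteins and S-phase cyclin genes 17 were measured, 7 rose and 6 fell (median -0.00). Called were 76.5% of the 17, with 41.2% higher and 35.3% lower. These shares lie near the 80.9%, 41.4% and 39.5% of genes at or above the median level. Cyclin E1 (CCNE1) rose by 0.38 ± 0.031 (2.27e-15), E2F2 by 0.32 ± 0.039 (1.13e-09) and TFDP2, a partner of E2F, by 0.31 ± 0.029 (7.48e-13). E2F5 fell by 0.68 ± 0.048 (1.69e-17), cyclin A2 (CCNA2) by 0.59 ± 0.036 (1.1e-19) and E2F6 by 0.27 ± 0.040 (1.06e-07).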

How the data were processed

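Values of 48 arrays were used as the authors deposited them, 1 log2 value per probe set and sample; the log2 scale was inferred from their range, 2.41 to 14.9. How background and arrays were normalized is not given in the sources used here. Of 22283 probe sets, 68 controls were left out. Of the 22215 kept, 19065 had 1 gene symbol, 1043 several and 2107 none in the platform annotation; 19053 matched RefSeq genes of GRCh38.p14. The test was limma's moderated test (lmFit, then eBayes; version 3.58.1, R 4.3.3), run for all sets with set as a factor, for each set alone, and by an F test of the set-by-treatment terms, with Benjamini-Hochberg adjustment and a threshold of 0.05. The scripts were tested on simulated data. Given in full are the 6 largest rises and 6 largest falls that passed and kept 1 sign in all sets, members with probe sets passing in opposite directions (none), and members whose change differed between sets; of the other lists, the 3 largest rises and falls. The members and lists were chosen with earlier results of these data known. Precision is limited by the number of arrays. Alternatives changed the scaling, dim-probe filter, replicate block, array weights, unit, probe-set rule, and left out sets and samples. The figures were drawn with matplotlib 3.10.9.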

Additional observations from a re-analysis of the deposited data

Results flagged for a closer look

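The change after imatinib differed between the 8 sets for 3 probe sets of the replication genes, by the limma F test of the set-by-treatment terms adjusted over all probe sets. For POLA1 the adjusted p was 0.0209, with changes from -0.51 in set C to 0.25 in set F. For the dimmer ORC4 probe set it was 0.0426, with changes from -0.49 in set C to 0.07 in set F. For the dimmer MCM5 probe set it was 0.0458, with changes from -0.08 in set F to 0.44 in set H, and 0.125 with each array centred on its median. All 3 had an end of their range in set F, where the median spread between imatinib replicates was 0.12 log2 and that between mock replicates 0.10, against 0.06 to 0.15 over the 16 groups. With 1 weight per set, chosen after seeing the data, the adjusted p was 0.0215 for POLA1, 0.0301 for ORC4 and 0.0584 for MCM5. All 3 calls were lost with the replicate number as a block, with values given below. The share of such calls among members, 3 of 68, was under the 7.2% of all probe sets.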

How the results depend on the processing

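Of the 38 members called, 30 (10 higher and 20 lower) kept direction and call under all 63 alternatives to the fit over all sets; CDC7, CHAF1A, PRIM1, PRIM2, FEN1, MCM6, POLA1 and RFC2 did not. Without 1 sample 12 to 15 members were higher and 24 to 25 lower. No clear pairing by replicate number was seen. Same-numbered mock and imatinib samples of a set deviated with a median correlation of 0.016 over 24 pairs, and 7 exceeded 0.1. For differently numbered samples the median was -0.032 over 48 pairs, and 12 exceeded 0.1. With 3 samples per group these values cannot exclude a weak pairing. With the replicate number as a block 13 members were higher and 24 lower, PRIM1 did not pass (adjusted p = 0.0627), set E had 2 members higher, and the calls of a difference between sets were lost (POLA1 0.0792, ORC4 0.0991, MCM5 0.129). With centred arrays 11 members were higher and 26 lower, 2 other replisome genes and 4 members of set B were higher, 3 of set F lower, 2 differed between sets, and ORC1 (-0.0078), GINS2 (-0.034) and POLA2 (-0.036) turned sign, none of them called. After quantile normalization within sets 19 members were higher and 20 lower, 7 other replisome genes were higher, 13 members of set C, 13 of D, 7 of E, 4 of F and 10 of G were higher, 11 of D and 3 of F lower, and 4 differed between sets; MCM3 (0.10), MCM6 (0.018), PCNA (0.13) and RPA2 (0.11) turned sign. The median change of all probe sets was 0.05 as deposited, 0.01 centred and 0.02 after quantile normalization. Among probe sets at or above the median level 4535 were higher over the array, and 4 members of set E and 6 of G were higher. With the mean over a gene's probe sets 3 members of set E were higher, 2 differed between sets, and RFC5 stood at 0.010.

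Other turns of sign concerned genes near 0 that were not called. GINS2 stood at -0.0055, -0.0025, -0.0052 and -0.013 without sets A, B, F and H. POLA2 stood at -0.0052 with array weights and at -0.0040, -0.0063, -0.0019 and -0.0063 without sets D, E, G and H. PCNA stood at 0.015, 0.028 and 0.00044 without sets D, E and H. Without 1 sample GINS2 ran from -0.0035 to 0.014, POLA2 from -0.0068 to 0.0095 and PCNA from -0.017 to 0.018. Without 1 sample the members lower in set C numbered 12 to 22, those higher in D 3 to 6, those higher and lower in E 1 to 5 and 7 to 23, those lower in F 0 to 3, those higher and lower in G 1 to 10 and 5 to 11, those higher and lower in H 6 to 13 and 4 to 6, and those that differed between sets 0 to 10, the highest without imatinib replicate 1 of set E and 0 without mock or imatinib replicate 3 of set C. The causes were not tested. Calls lost without 1 sample were those of CDC7 (mock replicate 1 or imatinib replicate 3 of A, imatinib replicate 1 of F, mock replicate 1 or 3 or imatinib replicate 2 or 3 of H) and PRIM1 (17 of 48).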
